A study of Mus musculus with 90 samples.

Results

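The 34 genes described here encode enzymes that carry glucose carbon to carbon dioxide in the mouse brain. They comprise 16 genes of glycolysis and lactate formation, 5 genes at the entry of pyruvate into mitochondria and 13 genes of the citrate cycle or its malate shuttle. Members were the genes whose mouse Ensembl ID maps to a listed symbol, and each of the 34 had its own row among the 37991 gene rows of the count table. RNA was sequenced from the frontal cortex, amygdala and hypothalamus of territorial C57BL/6J males that had each been housed with a C57BL/6J female, which was taken out 3 h before the test. The intruder groups faced an unfamiliar BALB/cJ male (strain given as BALB/C) inside a wire mesh cage for 5 min. The control groups faced an identical cage that held a paper cup. Residents then rested in a dark, quiet place for 30, 60 or 120 min before they were killed by cervical dislocation and dissected. The 18 groups hold 90 libraries, with 5 libraries in each group except the hypothalamus control group of 30 min (3) and both frontal cortex groups of 120 min (6 each). The series' design text says that RNA samples were pooled when libraries were made, without saying how, so a library may hold RNA of more than 1 mouse, and a count of mice given here is a count of animal IDs. Taking an animal ID as 1 mouse within a time and condition, the libraries come from 32 mice, and 28 of them gave all 3 regions. Caged exposure allows sight, sound and smell but no fight, and each library is dissected tissue with all its cell types, in which fewer cells of a type and less RNA per cell cannot be told apart.

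Glycolysis splits glucose into pyruvate in the cytosol and yields a small amount of ATP. Hexokinases trap glucose as glucose 6-phosphate, phosphofructokinases commit it to the pathway, and lactate dehydrogenases interconvert pyruvate and lactate. The pyruvate dehydrogenase complex turns pyruvate into acetyl-CoA inside mitochondria, and the citrate cycle oxidises it to feed the respiratory chain, which supplies most of the ATP that neurons spend on signalling. Several steps have more than one gene product: Ldha encodes the subunit associated with lactate production and Ldhb the subunit associated with lactate use, while Eno2 is the enolase of neurons and Eno1 the widespread form.

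Promoter stretches are shown for both lactate dehydrogenase genes, which had the largest differences between hypothalamus and frontal cortex among the glycolysis genes, and for 3 of the other glycolysis genes called with time in the frontal cortex whose promoters hold the same letters as that of Ldha. Of the others called between 30 and 60 min there, Pkm (higher at 60 min) and Hk2 (lower) hold these letters too and are not printed, and Gpi1, Pfkl, Tpi1, Gapdh, Eno1, Eno2 and Ldhb hold none in these windows. The sequences are RefSeq's, build GRCm38.p6, printed 5′ to 3′ on the gene's strand. Capitals mark every match to ACGTG on either strand, a form of the core letters (ACGTG or GCGTG) of the element bound by hypoxia-inducible factors. The form GCGTG was not searched. Stretches of equal length set Ldha (ENSMUSG00000063229, chr7:46845639-46845794, plus strand) beside Ldhb (ENSMUSG00000030246, chr6:142507967-142508122, minus strand). The other 3 belong to Aldoa (ENSMUSG00000030695, chr7:126799356-126799400, minus strand), Pgk1 (chrX:106186930-106186993, plus strand) and Pgam1 (chr19:41911737-41911781, plus strand).
Ldha: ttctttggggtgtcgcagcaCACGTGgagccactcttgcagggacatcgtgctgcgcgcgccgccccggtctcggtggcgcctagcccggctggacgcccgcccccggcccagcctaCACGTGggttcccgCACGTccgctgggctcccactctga
Ldhb: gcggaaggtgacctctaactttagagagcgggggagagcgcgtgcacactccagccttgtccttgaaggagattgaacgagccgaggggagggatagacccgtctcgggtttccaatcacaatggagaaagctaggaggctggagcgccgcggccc
Aldoa: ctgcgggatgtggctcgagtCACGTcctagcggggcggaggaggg
Pgk1: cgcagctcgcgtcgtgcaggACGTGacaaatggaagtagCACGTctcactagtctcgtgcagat
Pgam1: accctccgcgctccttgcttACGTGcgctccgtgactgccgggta

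The Ldha stretch holds 5 matches to ACGTG in 3 runs, because the palindrome CACGTG matches on both strands, and the Ldhb stretch holds 0. The printed Ldhb stretch does hold GCGTG, the form that was not searched. Over the 250 bases before a start, 33 of the 34 genes matched the promoter table with 49 starts, and 12 of the 33 (36.4%) held ACGTG in at least 1 promoter, against 18.5% of all 27025 genes in the table. By class these were 7 of 16 glycolysis genes, 2 of 5 pyruvate entry genes and 3 of 12 citrate cycle genes. The SP1 box GGGCGG was found in 21 of the 33 (63.6%, against 35.4% of all genes) and the cyclic AMP half-site TGACG in 9 (27.3%, against 19.8%). The nuclear receptor half-site AAGGTCA was found in 1 member, Eno1, and in 4.7% of all genes. A gene with more starts has more chances of a match, and these shares are not adjusted for it. Beside the 49 starts of the 33 members, the table holds 32851 starts for its 27025 genes. TGACG and ACGTG can share bases where they overlap. These matches describe letters only; no binding was measured.

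Each library held 38.6 M to 58.86 M reads assigned to genes (median 49.01 M), and the 34 members took 0.988 to 1.308% of them. Markers of cortex and hypothalamus followed the region labels, and those of amygdala did so in part. Summed levels of 7 cortical markers were 534.8 to 943.5 CPM (reads per gene scaled to a common library size) in frontal cortex libraries and at most 279.6 CPM elsewhere, and those of 10 hypothalamic markers were 812.3 to 2020 CPM in hypothalamus and at most 96.18 CPM elsewhere. The 8 amygdala markers summed to 320.8 to 667.2 CPM in amygdala, 211.8 to 360.3 CPM in hypothalamus and 175 to 291.3 CPM in frontal cortex, so that amygdala and hypothalamus overlapped. Most of the amygdala sum was Lypd1 (median 288.9 CPM), while Sema5a was higher in hypothalamus, Rspo2 and Tfap2d were higher in frontal cortex, and Etv1 was about level between amygdala and frontal cortex. Amygdala libraries also varied in striatal markers (305.5 to 2813 CPM) and 1 of them reached 1786 CPM of choroid plexus markers. Libraries of the other regions varied in such markers too. In frontal cortex the striatal marker Adora2a ran from 2.33 to 86.15 CPM and the choroid plexus marker Ttr from 0.195 to 297.7 CPM. In hypothalamus the thalamic marker Tcf7l2 ran from 13.26 to 134 CPM and Ttr from 0.282 to 180.6 CPM. The column names carry the code ISO on all 28 libraries of 30 min and the code CERV on all 62 of the later times, so 30 min and the code, whose meaning the sources used here do not give, cannot be told apart.

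Per kilobase of exon, the enzymes spanned a wide range, with the same highest and lowest member in every region. The length is that of all annotated exons of a gene together, which can exceed that of its main transcript and lower its level here. Gapdh was taken at 4133 bases and Ldhb at 1570, with mean levels of 873.3 and 492 CPM in frontal cortex before division. The order below therefore depends on the annotation. Aldoa, the muscle and brain aldolase, was the highest member on this scale, at a mean level of 503.6 CPM per kb in frontal cortex, 423.5 in amygdala and 370.6 in hypothalamus. Next in frontal cortex were Ldhb (313.4 CPM per kb), Mdh1, the cytosolic malate dehydrogenase of the malate-aspartate shuttle (297.9), Pkm, the pyruvate kinase of brain (253.5), Gapdh (211.3) and Eno2 (209.1). Most citrate cycle genes lay lower on this scale, with Suclg2, the GTP-forming succinyl-CoA ligase subunit, at 5.13 CPM per kb in frontal cortex. Of the hexokinases among the members, Hk1 was at 42.11 CPM per kb in frontal cortex, while Hk2, the insulin-responsive hexokinase of muscle, was the lowest member at 0.635. In frontal cortex the library ranges of Ldhb and Mdh1 overlapped, as did those of Mdh1 and Pkm, of Pkm and Gapdh, and of Gapdh and Eno2. Neighbours in this order therefore do not differ beyond the spread of libraries, while Ldhb and Mdh1 lay wholly above Eno2 on this scale.

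**Figure D1:**
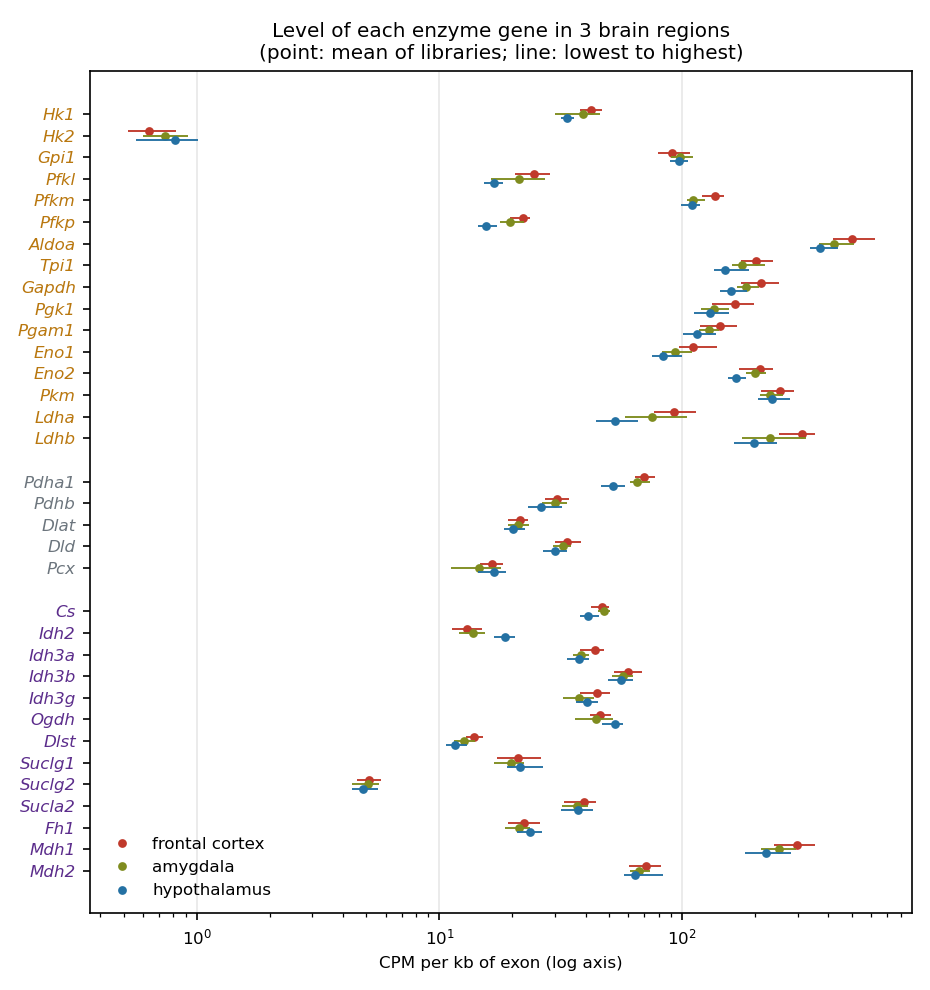
Mean level of each of the 34 genes per kilobase of exon (CPM per kb, log axis) in frontal cortex, amygdala and hypothalamus, with a line from the lowest to the highest library. Glycolysis genes (top), pyruvate entry genes (middle) and citrate cycle genes (bottom) are grouped; Aldoa is highest, at 503.6 CPM per kb in frontal cortex, and Hk2 lowest, at 0.635.

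Among the 3 classes of members, glycolysis had the median farthest from 0 in each pair of regions, and no test compared the classes. In hypothalamus against frontal cortex, 14 of the 16 glycolysis genes were lower, with a median log2 difference of -0.37 over the 16, and Hk2 and Gpi1, the glucose phosphate isomerase, were higher. Of the 13 citrate cycle genes, 9 were lower and 3 higher (Idh2, Ogdh and Fh1), with a median of -0.09. Of the 5 pyruvate entry genes, 4 were lower. In all, 32 of 34 members passed an adjusted p of 0.05 in edgeR's quasi-likelihood test of all 90 libraries with Benjamini-Hochberg adjustment over 18337 genes, where 87.4% of all genes passed (45.1% higher and 42.2% lower) and the median gene differed by 0.02. A called difference is therefore the rule between these regions, and the members stand beside that background by their direction, 27 lower and 5 higher. Suclg1 and Pcx, the pyruvate carboxylase that replenishes the cycle in astrocytes, were not called. Most leading library indices occur in a single region, so for most libraries index and region cannot be told apart, here and in the region comparisons that follow.

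Lactate dehydrogenase showed the widest gap. Ldha was at 252.6 to 378.6 CPM in frontal cortex (median 303.5, n = 32), 193.2 to 345.3 CPM in amygdala (median 251.3, n = 30) and 146.6 to 218.8 CPM in hypothalamus (median 172.8, n = 28). Every hypothalamus library lay below every frontal cortex library, and the amygdala overlapped both. The log2 difference of hypothalamus from frontal cortex was -0.80 (SE 0.039, adjusted p = 2.004e-32 by edgeR's quasi-likelihood test). Ldhb ranged over 395.3 to 554.3 CPM in frontal cortex (median 500.3), 277.3 to 510.8 CPM in amygdala (median 351.6) and 257.9 to 386.4 CPM in hypothalamus (median 301.8). Here too the hypothalamus lay wholly below the frontal cortex, with a log2 difference of -0.66 (SE 0.045), and the amygdala was lower than frontal cortex by a log2 difference of -0.44 (SE 0.044).

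The 3 phosphofructokinase subunits were all lower in hypothalamus with no overlap of libraries. Pfkl, the liver-type subunit, was at 136.9 to 191.5 CPM in frontal cortex and 101.5 to 122.4 CPM in hypothalamus, a log2 difference of -0.54 (SE 0.033). Pfkp (ENSMUSG00000021196), the platelet-type subunit, was at 260.8 to 316 CPM against 194.2 to 232.2 CPM (log2 difference -0.50, SE 0.018). Pfkm, the muscle-type subunit, was at 402.9 to 499 CPM against 331.7 to 394.9 CPM (log2 difference -0.31, SE 0.018). All 3 were lower in hypothalamus than in the frontal cortex of the same animal in 28 of 28 mice. Hk1 also separated, at 324.6 to 397.7 CPM in frontal cortex and 270 to 305.4 CPM in hypothalamus (log2 difference -0.32, SE 0.025).

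The middle steps of glycolysis moved by similar amounts with overlapping libraries. Aldoa (log2 difference -0.43), Tpi1, the triose phosphate isomerase (-0.42), Gapdh (-0.40), Eno1 (-0.40), Pgk1, the phosphoglycerate kinase (-0.33), Pgam1, the phosphoglycerate mutase (-0.31), and Eno2 (-0.31) were lower in hypothalamus. Aldoa, Tpi1, Gapdh and Eno1 were lower in 28 of 28 mice. Pkm differed least among the glycolysis genes that were lower, by a log2 difference of -0.11 (SE 0.020; -0.05 with upper-quartile scaling and -0.20 without the 30 min libraries), and was lower in 20 of 28 mice.

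A pair of exceptions in glycolysis went the other way. Hk2 was at 3.35 to 6.06 CPM in hypothalamus (median 4.82) and 3.10 to 4.92 CPM in frontal cortex (median 3.76), with overlapping libraries, a log2 difference of 0.35 (SE 0.042) and a higher value in the hypothalamus of 27 of 28 mice. Gpi1 was higher by 0.10 (SE 0.019) in hypothalamus and by 0.11 (SE 0.018) in amygdala, with overlapping libraries. Without the 30 min libraries neither Gpi1 difference was called (0.03 in both regions, adjusted p = 0.2927 and 0.2531 by edgeR's quasi-likelihood test).

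In the citrate cycle, Idh2 (ENSMUSG00000030541), the NADP-dependent mitochondrial isocitrate dehydrogenase, was the member that stood highest in hypothalamus relative to the other regions. It was at 43.35 to 52.85 CPM in hypothalamus (median 48.45), 31.18 to 39.79 CPM in amygdala (median 35.61) and 29.29 to 38.59 CPM in frontal cortex (median 33.61). All hypothalamus libraries lay above all libraries of both other regions. The log2 difference of hypothalamus from frontal cortex was 0.53 (SE 0.021, adjusted p = 1.655e-37 by edgeR's quasi-likelihood test), with a higher hypothalamus in 28 of 28 mice. Ogdh, the first subunit of the 2-oxoglutarate dehydrogenase complex, was at 255.8 to 311.3 CPM in hypothalamus and 227.6 to 276.9 CPM in frontal cortex (log2 difference 0.21, SE 0.019), and was higher in 27 of 28 mice with overlapping ranges.

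Not all steps of the cycle shared that direction. The NAD-dependent isocitrate dehydrogenase subunits were lower in hypothalamus: Idh3a by a log2 difference of -0.22, Idh3g by -0.13 and Idh3b by -0.09. Upper-quartile scaling put Idh3g at -0.06 and Idh3b at -0.03, and without the 30 min libraries they were at -0.21 and -0.18. Cs, the citrate synthase at the entry of the cycle, differed by -0.19 (SE 0.014), and Dlst, which works in 1 complex with Ogdh, by -0.24 (SE 0.017). Mdh1 differed by -0.42 (SE 0.034), against -0.15 (SE 0.021) for Mdh2, its mitochondrial counterpart. Over 6 alternatives Mdh1 ran from -0.45 to -0.36 and Mdh2 from -0.18 to -0.08. Fh1, the fumarate hydratase, was higher by 0.09 (SE 0.021), and this difference was gone without the 30 min libraries (-0.0001, adjusted p = 0.9966 by edgeR's quasi-likelihood test). Under upper-quartile scaling 4 small differences, those of Dlat, Idh3b, Suclg2 and Sucla2, were no longer called, at log2 differences from -0.03 to -0.01.

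At the entry of pyruvate, Pdha1, the X-linked catalytic subunit of pyruvate dehydrogenase, was at 238.4 to 288.3 CPM in frontal cortex, 228 to 274.4 CPM in amygdala and 173.3 to 217.4 CPM in hypothalamus. The hypothalamus lay below both other regions with no overlap, at a log2 difference of -0.41 (SE 0.018) from frontal cortex. The other subunits of the complex differed less: Pdhb by -0.22, Dld by -0.17 (-0.18 to -0.10 over 6 alternatives) and Dlat by -0.09. Counting all classes, libraries of hypothalamus and frontal cortex did not overlap for 8 of 34 members, 7 below (Hk1, Pfkl, Pfkm, Pfkp, Ldha, Ldhb and Pdha1) and 1 above (Idh2). Among all genes 27.3% did not overlap, 13.2% below and 14.1% above.

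The amygdala lay between the other regions for most glycolysis genes. Against frontal cortex 31 of 34 members were called, 27 lower and 4 higher, where 76.7% of all genes were called. The 16 glycolysis genes had a median log2 difference of -0.20 (14 lower, 2 higher) and the 13 citrate cycle genes one of -0.09 (10 lower, 2 higher). No member separated the amygdala from the frontal cortex without overlap, while 6.33% of all genes did. Of the 2 citrate cycle genes that were higher, Cs at 0.03 lost its call in most alternatives, with the mouse as a block among them (0.03, adjusted p = 0.1143 by edgeR's quasi-likelihood test), and Idh2 at 0.09 lost it without the 30 min libraries (0.02, adjusted p = 0.5283). Against hypothalamus 27 members were called in amygdala (80.1% of all genes), 20 higher and 7 lower, with 11 glycolysis genes higher and 1 lower but 5 citrate cycle genes in each direction. The 1 lower glycolysis gene, Hk2, lost its call without replicate 2 (-0.08, adjusted p = 0.0941 by edgeR's quasi-likelihood test). Dlat, among the 20, lost its call with upper-quartile scaling (0.00863) and in controls alone (0.05337). Amygdala libraries lay wholly above hypothalamus for Pfkp (0.33), Eno2 (0.25) and Pdha1 (0.32) and wholly below for Idh2 (-0.44), where 14.8% of all genes did not overlap. Of the citrate cycle genes that were higher, Mdh2 (0.06) lost its call with the mouse as a block (adjusted p = 0.06201 by edgeR's quasi-likelihood test), and Mdh2 (0.003093) and Suclg2 (0.01396) lost theirs with upper-quartile scaling, as did Ogdh against frontal cortex (-0.03), a call also lost without replicates 1, 2, 3 or 4.

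**Figure D2:**
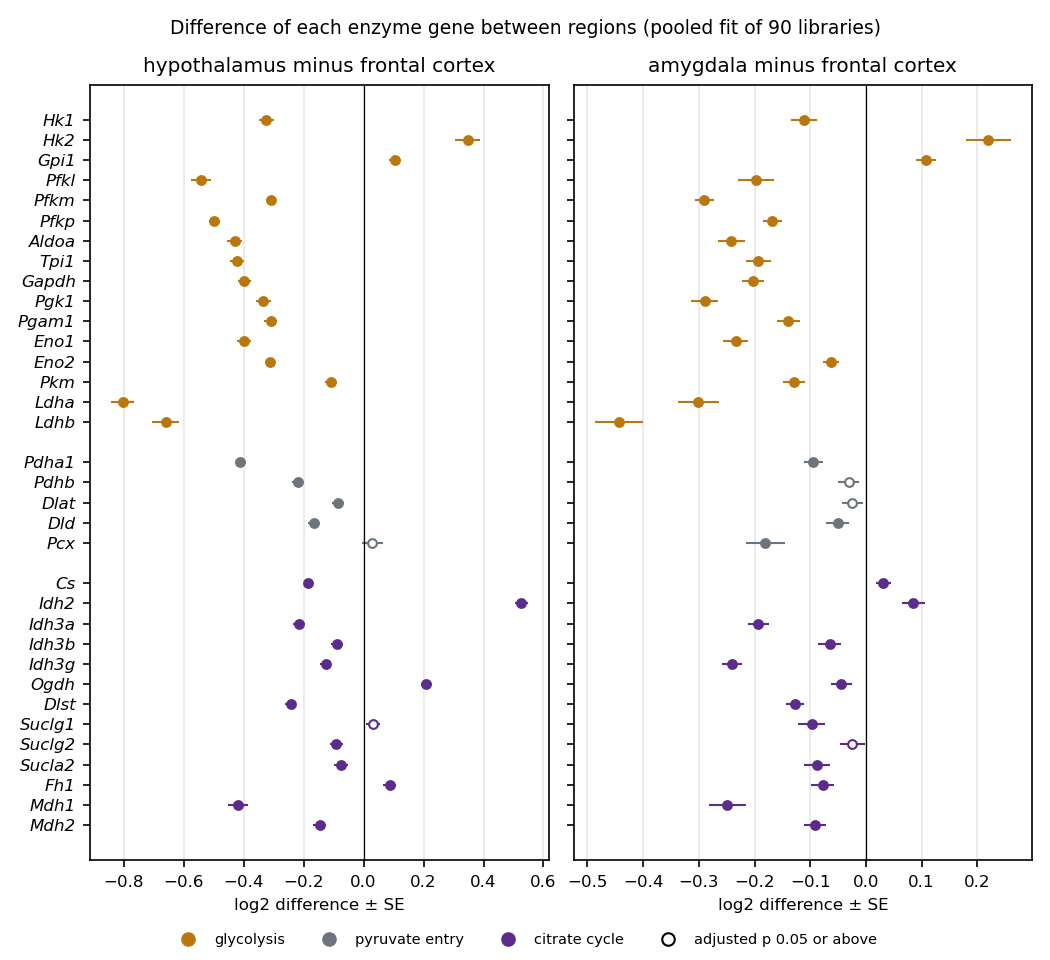
Log2 difference ± SE of each of the 34 genes between hypothalamus and frontal cortex (left) and between amygdala and frontal cortex (right), from the fit of 90 libraries; open points have an adjusted p of 0.05 or above. Ldha at -0.80 and Ldhb at -0.66 lie farthest left in hypothalamus and Idh2 at 0.53 farthest right. Most glycolysis genes sit left of most citrate cycle genes, except for Hk2 and Gpi1, which were higher than in frontal cortex in both panels.

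The balance between the pathways was summarised per library as the mean log2(CPM + 1) of the 16 glycolysis genes minus that of the 13 citrate cycle genes. It was 1.41 in frontal cortex (lowest 1.323, highest 1.512), 1.33 in amygdala (1.22 to 1.475) and 1.13 in hypothalamus (1.08 to 1.188). The hypothalamus did not overlap either other region, and it was lower than the frontal cortex of the same animal in 28 of 28 mice and lower than the amygdala in 28 of 28. The glycolysis mean carried most of this: 8.57 ± 0.09 (SD, n = 32) in frontal cortex, 8.40 ± 0.06 (n = 30) in amygdala and 8.22 ± 0.06 (n = 28) in hypothalamus. The citrate cycle mean was 7.15 ± 0.07, 7.06 ± 0.07 and 7.09 ± 0.06 in the same order and overlapped between all regions. Since the balance is a score over chosen members, no p is given for it. The members weigh equally in it, and a median in place of the mean gave 1.58 in frontal cortex and 1.18 in hypothalamus.

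**Figure D3:**
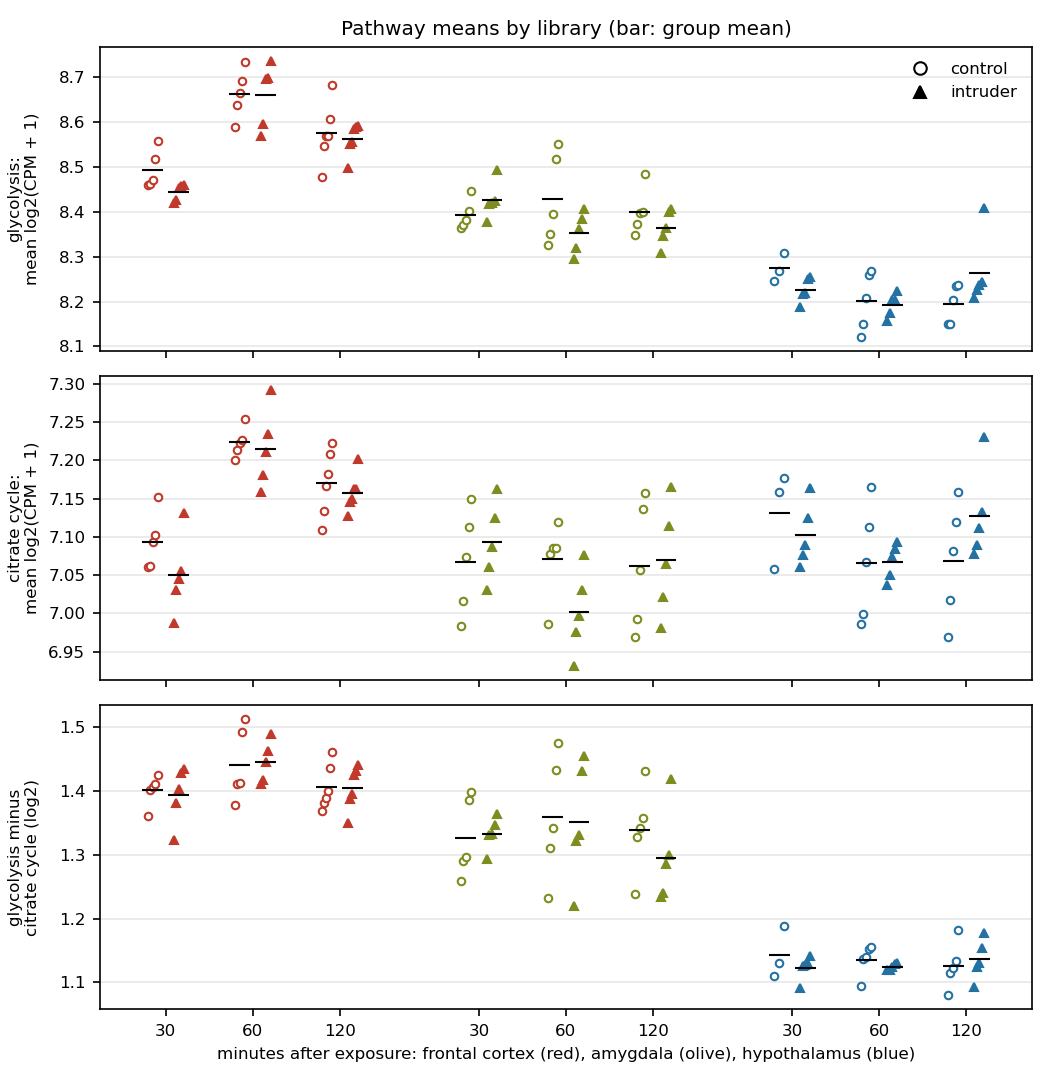
Mean log2(CPM + 1) of the glycolysis genes (top) and citrate cycle genes (middle) and their difference (bottom) in each library, by minutes after exposure and region; open circles are controls, triangles intruder libraries and bars group means. The hypothalamus lies at 1.08 to 1.188 in the bottom panel, below every frontal cortex and amygdala library, and the frontal cortex rises from 30 to 60 min in the top panel.

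Isozyme ratios within a library, which do not depend on its scaling apart from the pseudocount of 1 CPM, also differed between regions. The log2 ratio of Pfkp to Pfkm was -0.62 ± 0.08 (SD) in frontal cortex, -0.50 ± 0.12 in amygdala and -0.80 ± 0.07 in hypothalamus, and was lower in hypothalamus than in frontal cortex in 28 of 28 mice. The log2 ratio of Ldhb to Ldha was 0.69 ± 0.13 in frontal cortex, 0.82 ± 0.21 in hypothalamus and 0.54 ± 0.39 in amygdala, where it ran from -0.03 to 1.38. The ranges of the 3 regions overlapped. The log2 ratio of Eno2 to Eno1 was 0.73 ± 0.09 in frontal cortex, 0.89 ± 0.09 in amygdala and 0.81 ± 0.06 in hypothalamus, with overlapping ranges. Against the frontal cortex of the same animal it was higher in amygdala in 28 of 30 mice and in hypothalamus in 23 of 28.

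Cell type markers moved with these regional differences. The 8 neuron markers summed to 7565 to 9311 CPM in frontal cortex, 5723 to 7405 CPM in amygdala and 4080 to 5142 CPM in hypothalamus, with no overlap between regions. Snap25 and Syt1 led that sum in frontal cortex, and Map2 led it in hypothalamus. The medians of Map2 (1131 CPM in frontal cortex, 1271 in hypothalamus) and Tubb3 (338.4 and 357.5 CPM) were higher in hypothalamus. The 7 oligodendrocyte markers summed to 2430 to 6982 CPM in frontal cortex, 1950 to 6733 CPM in amygdala and 5022 to 8398 CPM in hypothalamus. The 7 astrocyte markers summed to 3827 to 5642 CPM in frontal cortex, 3866 to 5444 CPM in amygdala and 3049 to 3796 CPM in hypothalamus. Slc1a2 carried that sum (median 3068 CPM in frontal cortex, 1218 in hypothalamus), and 5 of the 7, among them Gfap (107.1 and 208.8 CPM) and Atp1b2 (499.3 and 741.2 CPM), had higher medians in hypothalamus. Microglia markers averaged 267.7 CPM in frontal cortex, 247.3 in amygdala and 157.3 in hypothalamus, and endothelial markers 237.2, 188.3 and 161.9 CPM. Their part in the regional differences was not tested.

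In frontal cortex the enzymes also differed between times. From 30 to 60 min, 22 of 34 members rose and 1 fell, by edgeR's quasi-likelihood test within the region, where 55.7% of all genes were called, 27.8% higher and 27.9% lower. Of the 16 glycolysis genes 12 rose (median 0.23 over the 16), of the 13 citrate cycle genes 9 rose (median 0.10), and of the 5 pyruvate entry genes only Pdhb rose (0.14). Of the 9, Dlst (0.05) lost its call in 3 of 7 alternatives and in 5 of 21 fits with libraries left out. The 1 gene that fell was Hk2, by 0.23 on the log2 scale (SE 0.060). In controls alone the calls of Pdhb, Ldhb and Idh2 were also lost, and in intruder libraries alone those of Hk2 and Idh2. Hk1, Pfkm and Pfkp, at log2 differences of 0.01 to 0.05, did not pass the test, so among the early steps of glycolysis only Gpi1 and Pfkl rose.

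Aldoa had the largest increase. It was at 1218 to 1370 CPM in the 10 libraries of 30 min (median 1256), 1483 to 1809 CPM in the 10 of 60 min (median 1672) and 1319 to 1671 CPM in the 12 of 120 min (median 1466). All libraries of 60 min lay above all of 30 min, and the log2 difference was 0.36 (SE 0.036, adjusted p = 4.519e-09 by edgeR's quasi-likelihood test). Gapdh went from 721.1 to 826.3 CPM at 30 min to 883.9 to 1041 CPM at 60 min (log2 difference 0.33, SE 0.033). Ldha went from 252.6 to 293.5 CPM to 294.7 to 378.6 CPM (0.34, SE 0.041), the narrowest of these gaps between libraries.

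The later steps of glycolysis moved with them. Eno2 was at 806.6 to 950.8 CPM at 30 min and 1022 to 1119 CPM at 60 min (log2 difference 0.28, SE 0.027). Pkm was at 1061 to 1247 CPM and then 1285 to 1453 CPM (0.25, SE 0.027). In the citrate cycle, 3 genes separated in the same way. Suclg1, the shared subunit of succinyl-CoA ligase, was at 80.11 to 96.1 CPM at 30 min and 99.51 to 120.7 CPM at 60 min (0.31, SE 0.033). Mdh2 was at 215.8 to 251.1 CPM and then 252.4 to 292.7 CPM (0.25, SE 0.033). Fh1 was at 64.83 to 75.75 CPM and then 77.1 to 87.75 CPM (0.22, SE 0.032). With these 3, 8 of 34 members had libraries of 60 min wholly above those of 30 min, and none wholly below. Among all genes 4.28% lay wholly above and 4.04% wholly below.

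For the members that had risen, mean levels at 120 min lay between those of the earlier times, except for Idh2 (34.07 CPM at 60 min, 35.05 at 120 min) and Dlst (133.9 and 134.4 CPM), which were highest at 120 min. From 60 to 120 min 17 members fell and 1 rose (37.6% of all genes called). Of the glycolysis genes 11 fell, Ldha by 0.18 (SE 0.039), Gapdh by 0.17 (SE 0.031) and Aldoa by 0.15 (SE 0.035) on the log2 scale. Of the citrate cycle genes 5 fell and Ogdh rose by 0.07 (SE 0.026, adjusted p = 0.04526 by edgeR's quasi-likelihood test), a call lost in 6 of 8 alternatives and in 18 of 22 fits that left out a library. From 30 to 120 min 19 members were higher and 1, Suclg2, lower (26.6% of all genes called), and here 10 of the 13 citrate cycle genes and 9 of the 16 glycolysis genes were higher. The calls of Suclg2 and Dlst were lost in 5 of 7 alternatives and that of Idh3g in 4 of 7, with upper-quartile scaling and no filter among them, and that of Suclg2 also in 16 of 23 fits with libraries left out. The rise from 30 to 60 min was called for 18 members in controls alone (35.4% of genes called) and 21 in intruder libraries alone (45.5%). From 30 to 120 min 14 members were called in intruder libraries alone (17.7%) and 2 in controls alone (4.42%). In each condition 31 of the 34 were higher at 120 min, with a median log2 difference of 0.10 in intruder libraries and 0.07 in controls, and the test of intruder by time called 0 members.

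**Figure D4:**
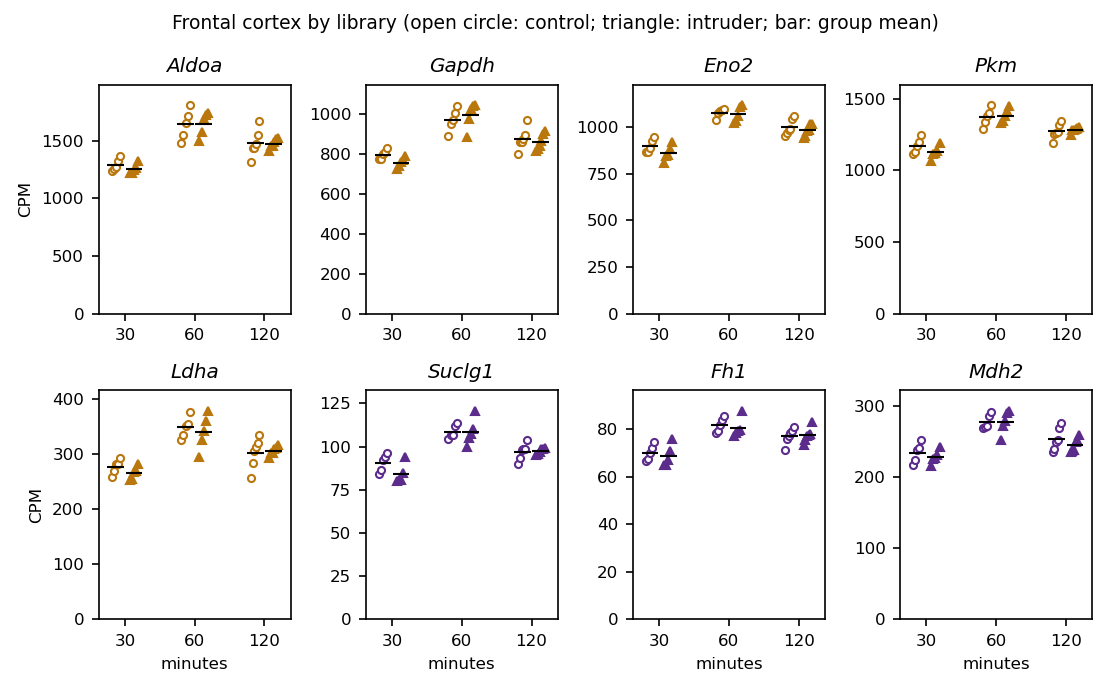
CPM in each frontal cortex library at 30, 60 and 120 min for the 8 genes whose libraries of 60 min all lie above those of 30 min; open circles are controls, triangles intruder libraries and bars group means, with each axis starting at 0. Aldoa goes from 1218 to 1370 CPM at 30 min to 1483 to 1809 CPM at 60 min, and levels at 120 min lie between.

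Other measures changed across the same frontal cortex libraries. Reads outside annotated genes were 10.99 to 13.19% of the library at 30 min, 8.633 to 10.29% at 60 min and 9.46 to 11.3% at 120 min. The astrocyte markers summed to 5010 to 5642 CPM at 30 min and 3827 to 4758 CPM at 60 min, and the oligodendrocyte markers to 2430 to 4061 CPM and 4324 to 6982 CPM, so that neither list overlapped. Neuron markers overlapped, at 7929 to 9311 CPM and 7595 to 8999 CPM. Blood markers were at 65.95 to 108.1 CPM and 107.8 to 179.4 CPM, mural markers at 231 to 289.7 CPM and 159.2 to 228.8 CPM, and thalamic markers at 156 to 194.7 CPM and 100.6 to 150 CPM. Their part in the time difference was not tested. Frontal cortex libraries of 30 and 60 min share no leading library index, so index and time cannot be told apart. Between 60 and 120 min 1 index is shared, by 2 controls of 60 min and the 6 intruder libraries of 120 min, and within it 6 members were called, all lower at 120 min (10.1% of all genes called).

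The other regions did not show this course. In amygdala 1 member was called from 30 to 60 min (9.1% of all genes called), Eno2, lower by a log2 difference of -0.10 (not called in controls alone, at -0.03, or with the library index as a term, at -0.11; intruder libraries alone gave -0.17), and 0 from 60 to 120 min (0.365%) or from 30 to 120 min (9.78%). In hypothalamus 0 members were called from 30 to 60 min (1.21% of all genes), 10 reaching an unadjusted p below 0.05 (15.2%), with a median log2 difference of -0.06 over the 34. From 60 to 120 min 0 were called (0.373%), and from 30 to 120 min 1 was called (2.9%), Pcx, lower by a log2 difference of -0.14. That call was lost in controls alone (-0.18), in intruder libraries alone (-0.11) and without control replicate 3 of 30 min (-0.13).

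The difference between regions in the time course was tested directly in the fit of all 90 libraries, an analysis added after these values were seen. From 30 to 60 min the frontal cortex rose more than the hypothalamus for 21 members and less for 1 (Hk2), with 43.4% of all genes called, and more than the amygdala for 22 members (46.4%). Aldoa rose by 0.46 more than in hypothalamus (SE 0.062, adjusted p = 3.97e-09 by edgeR's quasi-likelihood test) and by 0.40 more than in amygdala (SE 0.060). Suclg1 rose by 0.40 more than in hypothalamus (SE 0.062) and by 0.41 more than in amygdala (SE 0.060). For Eno2 both values were 0.39 (SE 0.037 and 0.036). From 60 to 120 min the frontal cortex fell relative to hypothalamus for 13 members (25% of all genes called) and relative to amygdala for 8 (13.7%). From 30 to 120 min it rose more than hypothalamus for 11 (13.5%) and more than amygdala for 14 (23.2%).

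Exposure to the intruder changed no member by the test. In each of the 9 combinations of region and time 0 of 34 members were called by edgeR's quasi-likelihood test, and 0 were called in the average over times or in the test of intruder by time. The share of all genes called was 0% in 7 of the 9 contrasts and 0.538% (amygdala) and 0.192% (hypothalamus) at 120 min, 0% in the averages and at most 0.0113% by time. At an unadjusted p below 0.05, the members counted were 0, 6 and 2 in amygdala at 30, 60 and 120 min (2.74, 7.13 and 15.1% of all genes). They were 2, 0 and 0 in frontal cortex (6.28, 2.54 and 5.34%) and 0, 0 and 8 in hypothalamus (1.92, 2.22 and 11.5%). DESeq2 called 1 member in amygdala at 120 min, where it called 3.47% of all genes, and 0 in the other contrasts. In all 9 contrasts the control and intruder libraries overlapped for each of the 34 members. Among all genes they did not overlap for 0.776, 0.376 and 3.13% in amygdala at 30, 60 and 120 min, 1.03, 0.369 and 0.246% in frontal cortex, and 3.22, 0.458 and 1.3% in hypothalamus.

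The directions of the 34 members, none of which passed the test in these contrasts, are given as a description, beside 46.4 to 51.2% of all genes higher and all-gene medians between -0.007803 and 0.003202. At 30 min 30 of 34 were lower in intruder libraries of frontal cortex (median log2 difference -0.04), 30 were lower in hypothalamus (-0.05) and 28 were higher in amygdala (0.03). In amygdala at 60 min 29 were lower (-0.07), and in hypothalamus at 120 min 27 were higher (0.07). In the other contrasts 13 to 17 were higher. Single libraries moved some of these counts and medians by over 1.5 times. In hypothalamus at 60 min 13 were higher, but 6 without control replicate 1 and 23 without control replicate 2 or 6. In frontal cortex the count went from 13 to 24 at 120 min without control replicate 4, and from 14 at 60 min to 9 without control replicate 3 and 8 without intruder replicate 5. In hypothalamus at 30 min, with 3 controls, the median was -0.0769 without control replicate 2, -0.0231 (23 lower) without control replicate 3 and -0.0319 without control replicate 5. In amygdala at 30 min it was 0.0539 without control replicate 1, 0.0167 without control replicate 2 and 0.0545 without intruder replicate 3. With the library index as a term, 0 members were called in any contrast where it could be fitted, with at most 29 of all genes called in any of them, and the hypothalamus medians were -0.0241 at 30 min, where 2 of the 5 intruder libraries carry another index, and 0.118 at 120 min (29 higher), where 2 of the 5 controls do. At 60 min that term turned the median from -0.00789 to 0.00753 in frontal cortex and from -0.00804 to 0.00866 in hypothalamus. The medians farthest from 0, at amygdala 60 min and hypothalamus 120 min, are described with their libraries.

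In hypothalamus at 120 min the glycolysis median was 0.09. Ldhb was at 309, 257.9, 268.8, 286.6 and 333.2 CPM in the 5 controls and 382.4, 294.2, 327.8, 305.1 and 386.4 CPM in the 5 intruder libraries. The groups overlapped, and the log2 difference of 0.22 (SE 0.088) had an adjusted p of 0.3753 by edgeR's quasi-likelihood test. Mdh1 was at 464.8 to 646.9 CPM in controls and 571.4 to 719.3 CPM in intruder libraries (0.18, SE 0.084). Intruder replicate 1 had a glycolysis mean of 8.41, against 8.207 to 8.243 in the other 4 intruder libraries and 8.15 to 8.238 in controls, and without it the median over the 34 members went from 0.0677 to 0.0447. Over all libraries left out in turn at that time it ranged from 0.0447 to 0.0994, the highest without control replicate 6. Beside this, the 7 mural markers summed to 139.3 to 172.8 CPM in controls and 92.79 to 116.2 CPM in intruder libraries, and the 7 endothelial markers to 153.2 to 175.8 CPM and 94.06 to 146.6 CPM, with no overlap in either list. Their part in the result was not tested.

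In amygdala at 60 min the glycolysis median was -0.09. Pgk1 was at 287.2, 333.7, 349.7, 301.6 and 322.8 CPM in controls and 291, 267.6, 288.8, 279.7 and 298.7 CPM in intruder libraries, which overlapped (log2 difference -0.16, SE 0.061, adjusted p = 0.6502 by edgeR's quasi-likelihood test). All 5 intruder libraries carry 1 leading index, which among the controls only replicate 1 shares. With the index as a term 27 of the 34 members were higher and the median was 0.03, a contrast that rests on that 1 control library, while the other 4 controls carry another index. At 120 min Idh3g was at 116.6, 100.2, 98.41, 106 and 106 CPM in controls and 86.85, 91.42, 105.8, 91.71 and 94.92 CPM in intruder libraries. Intruder replicate 3 overlapped the controls, and the log2 difference of -0.16 (SE 0.048) had an adjusted p of 0.1043. Idh3g is the member that DESeq2 called (-0.16, adjusted p = 0.03127), and edgeR called it without intruder replicate 3 (-0.21, adjusted p = 0.04228).

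**Figure D5:**
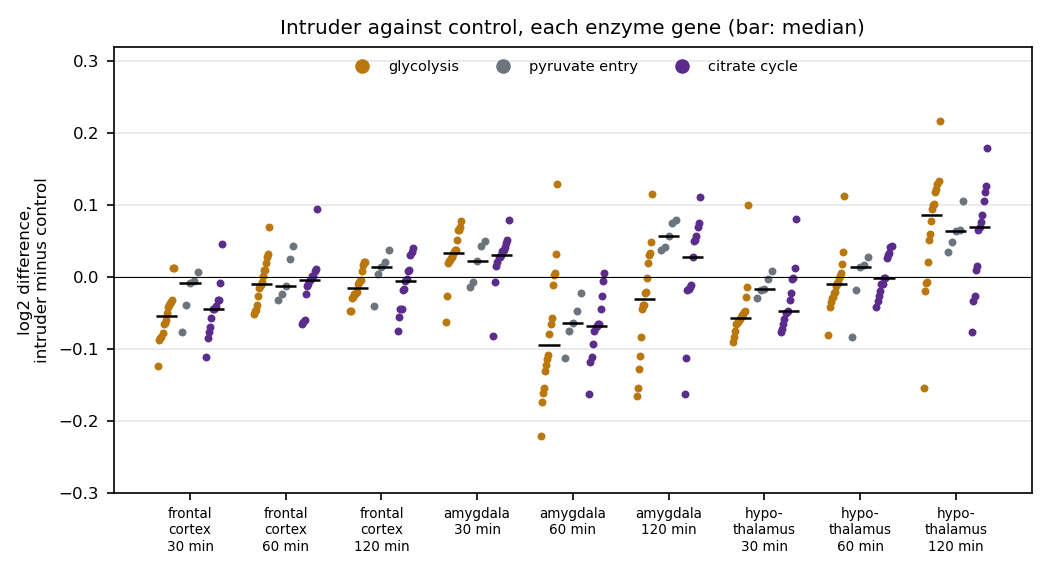
Log2 difference of intruder from control libraries for each of the 34 genes in the 9 combinations of region and time, with points coloured by pathway and bars at the class medians. The medians lie within 0.1 of 0 throughout, and no gene passes the adjusted test in any of the 9 contrasts.

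Lists of related genes were read in the same comparison of hypothalamus with frontal cortex, where 45.1% of all genes were called higher and 42.2% lower, so that counts split about evenly are at the background. Hkdc1, a further hexokinase family gene, averaged 0.581 CPM in hypothalamus and 17.8 CPM in frontal cortex (log2 difference -4.94, SE 0.14). Of the 16 tested isozyme and fructose bisphosphate genes 7 were higher and 7 lower in hypothalamus than in frontal cortex. Of the 8 transporters of glucose, lactate and pyruvate 2 were higher and 5 lower, Slc2a3, the neuronal glucose transporter, by -0.53 and Mpc1, a subunit of the mitochondrial pyruvate carrier, by -0.71. Of the 8 genes that control pyruvate dehydrogenase 1 was higher and 5 were lower, Pdp1, the phosphatase that activates the complex, by -1.60. Of 16 further citrate cycle and shuttle genes 8 were higher and 6 lower, with Idh1, the cytosolic NADP-dependent isocitrate dehydrogenase, higher by 0.79 (SE 0.024) and Sdha, a succinate dehydrogenase subunit, higher by 0.30.

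In frontal cortex from 30 to 60 min, the related lists were divided, against 27.8% of all genes called higher and 27.9% called lower. Of 16 further citrate cycle and shuttle genes 9 rose and 3 fell, and among those that rose were Sdhb, Sdhc and Sdhd, the other succinate dehydrogenase subunits, by 0.28, 0.29 and 0.26, and Got2, the mitochondrial aspartate aminotransferase, by 0.31. Of the 8 transporters 4 rose and 2 fell. Slc2a1, the glucose transporter of the blood-brain barrier and astrocytes, rose by 0.35 (SE 0.082), and Slc16a7, a monocarboxylate transporter of neurons, fell from a mean of 15.7 to 8.32 CPM (log2 difference -0.92, SE 0.13). Of the genes that control pyruvate dehydrogenase 2 rose and 4 fell. Pdk1 fell by 0.34 on the log2 scale and Pdk2 rose by 0.19, both being kinases that inactivate the complex.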

How the data were processed

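The deposited file is a table of raw counts per Ensembl gene, 1 column per library, made by the authors and not normalized; 5 further lines that name no gene stayed out of all totals and tests. Of all reads in a library, 8.633 to 14.46% fell outside annotated genes, 9.786 to 11.5% were not unique and 0.634 to 0.761% were ambiguous. Per the submitters' processing notes, build NCBIM37, CASAVA 1.8.2, TopHat2 2.0.8, HTSeq 0.6.1, edgeR 3.2.4 and R 3.0.0 were used. Libraries were made with a stranded mRNA kit, per the labels. Reads that match several places were not assigned, so genes with close pseudogenes (Gapdh, Pgk1, Pgam1, Ldha, Eno1, Tpi1, Aldoa, Pkm, Mdh1) are less certain in level; the table has rows named as such copies for Pgk1 (1), Pgam1 (2) and Ldha (2).

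IDs were matched to symbols with a gene name table (32919 of 37991 matched). Counts were tested with edgeR 4.0.16 (R 4.3.3; limma 3.58.1) with TMM scaling, edgeR's filter on low counts and the quasi-likelihood F test, per region with 6 groups (17277 genes in amygdala, 17091 in frontal cortex, 17676 in hypothalamus) and over all 90 libraries for regions (18337 genes), with Benjamini-Hochberg adjustment over all genes tested and a threshold of 0.05. All 34 members passed the filter. The region fit takes libraries of 1 mouse as independent; the mouse as a block was an alternative, with DESeq2 1.42.0, limma voom, upper-quartile scaling, no filter, the replicate number as a block, library index, controls or intruder libraries only and each library left out. CPM values use TMM library sizes. Levels per kb use the length of all annotated exons of a gene together, from another build (GRCm38). The models were tested on simulated data. Members had at least 914 reads in every library except Hk2 (136 to 329 reads), whose counting error is the largest; p-values measure the spread between libraries, with 1 animal ID per library by the labels; the design text says that RNA was pooled in making libraries, so whether a library holds 1 mouse is not settled. Any of the 34 members could be named; other genes came from 6 related lists, and markers from 13 lists. Members and lists were chosen with earlier results of these data known.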

Additional observations from a re-analysis of the deposited data

Results flagged for a closer look

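Of 119 sets of 5 or 6 libraries in which 1 library was compared with the rest of its group, 3 held a library far from the others, where chance gives about 1 in 20. In the hypothalamus intruder group of 120 min, replicate 1 had a glycolysis mean of 8.408 on the log2 scale, against 8.207 to 8.243 in the other 4. In the amygdala control group of 30 min, replicate 4 had a log2 ratio of Hk1 to Hk2 of 6.042, against 5.855 to 5.904. In the amygdala control group of 60 min, replicate 6 had a log2 ratio of Ldhb to Ldha of 1.377, against 0.1861 to 0.5162, with Ldha at 196 CPM.

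The time course differed between regions by a test of the difference itself. Against hypothalamus, the frontal cortex change differed for 22 members from 30 to 60 min, 13 from 60 to 120 min and 11 from 30 to 120 min. Of all genes 43.4, 25 and 13.5% were called, in that order. Against amygdala the counts were 22, 8 and 14 (46.4, 13.7 and 23.2% of all genes). All 30 min libraries carry another column code than the later ones, so the counts that involve 30 min cannot be told apart from it.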

How the results depend on the processing

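Alternatives moved several counts of members, most of them small. In amygdala, DESeq2 called 1 member (Idh3g) for intruder at 120 min where edgeR called 0 (3.47% of all genes called by DESeq2; shares of all genes follow each count in parentheses). For 60 against 30 min there (1 called) the counts were 3 with upper-quartile scaling (9.21%), 4 with DESeq2 (13%), 0 in controls alone (0.133%) and 0 with the library index as a term (0.00579%), and for 120 against 30 min (0 called) 2 with upper-quartile scaling (10%), 2 in intruder libraries alone (15%) and 1 with DESeq2 (12.5%). In hypothalamus, 60 against 30 min (0 called) gave 1 with upper-quartile scaling (1.06%), 2 with DESeq2 (3.81%) and 2 with the replicate number as a block (1.66%), and 120 against 30 min (1 called) gave 0 in controls alone (0.175%) and 0 in intruder libraries alone (1.93%). In frontal cortex, 120 against 60 min (18 called) gave 9 in controls alone (15.9%), 10 in intruder libraries alone (22.9%) and 6 within the shared index (10.1%), with fewer libraries in each, and 120 against 30 min (20 called) gave 2 in controls alone (4.42%). With the index as a term, which could not be fitted for frontal cortex times or its intruder contrast of 120 min, average or intruder by time, nor for hypothalamus 120 min against the earlier times, all counts of members were 0, with at most 29 of all genes called. In amygdala, the intruder differences at 60 min of Gapdh (0.0429), Pdha1 (0.003459) and Fh1 (0.04951) changed sign, in a contrast that rests on control replicate 1, the only control with the index of the intruder libraries. Without the 30 min libraries, an alternative chosen after seeing the data, Fh1 in hypothalamus against frontal cortex (-0.0001225) and Cs in amygdala against frontal cortex (-0.01676) changed sign. The cause was not tested. The balance with medians was 1.584 in frontal cortex and 1.176 in hypothalamus, and a pseudocount of 0.25 CPM put the log2 ratio of Hk1 to Hk2 at 6.158 (amygdala), 6.481 (frontal cortex) and 5.824 (hypothalamus).

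With each library left out in turn, amygdala counts were 0 to 1 for intruder at 120 min (1 without intruder replicate 3), 1 to 2 for 60 against 30 min (2 without control replicate 2 of 30 min or intruder replicate 5 of 60 min) and 0 to 2 for 120 against 30 min. Frontal cortex counts were 22 to 24 for 60 against 30 min, 16 to 19 for 120 against 60 min and 17 to 22 for 120 against 30 min. Hypothalamus counts were 0 to 1 for 60 against 30 min (1 without control replicate 6 of 60 min) and 0 to 1 for 120 against 30 min (0 without control replicate 3 of 30 min). Region counts, with each replicate number left out, were 31 to 32 for hypothalamus against frontal cortex, 29 to 30 for amygdala against frontal cortex and 26 to 27 for amygdala against hypothalamus. All other counts stayed 0. With all libraries kept, the shares of all genes called were 0.538, 9.1 and 9.78% for these amygdala contrasts, in the order given. They were 55.7, 37.6 and 26.6% for frontal cortex and 1.21 and 2.9% for hypothalamus. For the region differences they were 87.4, 76.7 and 80.1%. Log2 ratios in amygdala, frontal cortex and hypothalamus were 0.8882 to 0.9008, 0.7184 to 0.7309 and 0.8029 to 0.811 for Eno2 to Eno1, 0.5072 to 0.5558, 0.6787 to 0.6964 and 0.8017 to 0.8391 for Ldhb to Ldha, -0.5062 to -0.4911, -0.6256 to -0.6131 and -0.8128 to -0.8015 for Pfkp to Pfkm, and 5.933 to 5.959, 6.227 to 6.246 and 5.613 to 5.64 for Hk1 to Hk2.

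Over 41 pairs of control and intruder libraries with the same number, deviations correlated from -0.654 to 0.681, and in 0 of 9 sets was every pair above 0.1. Pairing by number was therefore not seen by this rule, which cannot exclude it, since larger differences between libraries can hide it. The replicate block otherwise left the counts of members within 1.5 times.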

Other observations

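Of 11 genes of glycogen synthesis and breakdown, 8 were higher and 2 lower in hypothalamus than in frontal cortex, with a median log2 difference of 0.43. Of all genes tested 87.4% were called, 45.1% higher, with a median of 0.02. Pygb, the brain glycogen phosphorylase, averaged 276.3 CPM in hypothalamus and 186.7 CPM in frontal cortex (log2 difference 0.57, SE 0.013), Pygl, the liver form, 8.49 and 3.08 CPM (1.46, SE 0.050), and Pgm1, a phosphoglucomutase, 129.9 and 52.6 CPM (1.31, SE 0.022). Gys1, the glycogen synthase, was at 21.4 and 22.1 CPM and was not called. In frontal cortex from 30 to 60 min 4 of 7 pentose phosphate genes rose and 0 fell, where 27.8% of all genes were called higher and 27.9% lower. Taldo1, the transaldolase, rose by 0.36 (SE 0.041).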
